A study of Mus musculus with 26 samples.

Results

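The cytochrome P450 genes of families 1 to 4 were compared between mouse liver tumours and control livers. These families hold the enzymes that handle drugs, toxins, fatty acids and steroids. The members were the entries of the count table whose symbol was Cyp, a family number from 1 to 4, a subfamily letter and a final number, with at least 50 counts over all 26 libraries. This gave 64 of the 35976 genes in the table, out of 75 symbols of that form. The symbols just under the limit were Cyp2d34 with 42 counts and Cyp2j11 with 20, and those just above it were Cyp2b19 with 72 and Cyp2j8 with 73. Symbols with a letter after the final number, such as Cyp4a12a and Cyp3a41a, fell outside the definition and are described only beside the sex-biased members.

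The series asked how the zone of the liver lobule in which a tumour starts bears on hepatocellular carcinoma, and used bulk RNA sequencing. Cyp1a2_CA tumours came from Cyp1a2-CreERT2; Ctnnb1(ex3)fl/+; Arid2fl/fl mice (10 libraries, 9 animal numbers), and Gls2_CA tumours from Gls2-CreERT2; Ctnnb1(ex3)fl/+; Arid2fl/fl mice (9 libraries, 5 animal numbers). The single Cyp1a2_C library, from animal CB6, was Cyp1a2-CreERT2; Ctnnb1(ex3)fl/+ with no floxed Arid2 named. These 3 groups were on a mix of C57BL/6J and Swiss Webster, received tamoxifen at postnatal day 28 and were followed for 6 to 12 months. The 6 WT livers were from C57BL/6J mice that received AAV-Cre, a viral vector for the recombinase, and stayed on normal chow for up to 12 months.

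CreERT2 is a recombinase that works only after tamoxifen. Driven from Cyp1a2 it acts in hepatocytes around the central vein (pericentral), and driven from Gls2 in those around the portal vein (periportal). Loss of exon 3 stabilises β-catenin, and Arid2 encodes a subunit of a chromatin remodelling complex. Cytochrome P450 enzymes are heme proteins of the endoplasmic reticulum that take electrons from the reductase Por. In normal liver, Wnt signalling to β-catenin keeps many of them pericentral, nuclear receptors such as Nr1i3 (CAR), Nr1i2 (PXR) and Ppara and the receptor Ahr induce particular subfamilies, and growth hormone sets several that differ between males and females.

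Strain, the way Cre was delivered, follow-up, genotype and sequencing depth all differed between tumours and WT, so their parts in a difference cannot be told apart. The labels do not give sex, do not say what the letters S, M and L in the titles mean, and do not say whether libraries with 1 animal number were separate tumours. They also do not say whether the Cyp1a2-CreERT2 allele leaves Cyp1a2 itself intact. Counts of libraries with the same number were summed, and the spread from 1 number to another is what the p-values rest on.

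Total counts were 37051941 to 49254470 per library in Cyp1a2_CA, 36992043 to 42865787 in Gls2_CA, 41038144 in Cyp1a2_C and 13486530 to 16975288 in WT. Levels are given as CPM, counts relative to a scaled library total in the usual unit. Arid2 was at 60.5 to 72.8 CPM in WT, 25.7 to 36.6 in Cyp1a2_CA and 24.1 to 46.8 in Gls2_CA, with no overlap, and at 40.8 in the Cyp1a2_C library. The β-catenin target Axin2 was higher in every tumour animal than in any WT liver, and 9 of 11 fixed β-catenin targets outside the P450 genes rose in each tumour group. Of all genes tested, 38.3% rose in Cyp1a2_CA and 39.2% in Gls2_CA. Libraries CAB44-L, CAB225-L, GAB235-S and CB6-L stood apart with the muscle gene Ttn at 21000, 20700, 30200 and 8670 CPM. Other muscle genes were far lower. Myh1 was highest in the same 4 animals, at 0.0752, 0.416, 0.096 and 0.954 CPM, and Acta1 was at 0.188, 1.62, 0.096 and 2.34. Ckm was above 0 in GAB235 alone (0.048), and WT had no counts of the 3 genes.

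Summed over all members, the P450 genes of families 1 to 4 held a smaller part of the RNA in tumours. Their summed level was 17200, 17800 and 18500 CPM (lowest, median and highest of 6) in WT and 3160, 6950 and 10400 CPM in the 9 Cyp1a2_CA animals. In Gls2_CA it was 9220 CPM in GAB18, 8060 in GAB229, 2440 in GAB235, 7580 in GAB242 and 9000 in GAB294. No tumour animal reached the WT range. The WT mean was 2.81 times the Cyp1a2_CA mean and 2.47 times the Gls2_CA mean, or 2.62 and 2.05 times without Cyp2e1, the most abundant member. The Cyp1a2_C library held 134 CPM. In bulk RNA, fewer hepatocytes and less P450 RNA per hepatocyte cannot be told apart.

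The 10 hepatocyte markers (Alb and others) moved with the P450 genes. They summed to 101000 to 125000 CPM in WT, 17600 to 117000 in Cyp1a2_CA, 7870 to 41100 in Gls2_CA and 954 in Cyp1a2_C, and 7 of 10 fell in each tumour group. All 10 had at least 100 CPM in WT, a level at which 56.2% of genes fell in Cyp1a2_CA and 55.2% in Gls2_CA. As a percentage of that marker sum, the members stood at 14.7 to 17.5 in WT, 3.79 to 24.3 (median 18.9) in Cyp1a2_CA, 19.4 to 31.0 in Gls2_CA and 14.1 in Cyp1a2_C. All 5 Gls2_CA animals were thus above the WT range on this measure, although below it in CPM. Animal CAB52 went the other way: its summed hepatocyte markers, at 117000 CPM, lay within the WT range, while its members summed to 4430 CPM. That marker sum rested largely on Ahsg, at 51300 CPM in CAB52 against 6350 to 8890 in WT. In CAB52, Apoa1, Apoh and Trf lay within the WT range. Alb (31400 CPM, against at least 49900 in WT), Apoa2, Apob, Ttr, Fgb and Serpinc1 lay below it. In the group means, Alb gave 58610 of the 113000 CPM of the marker sum in WT and 6765 of 31200 in Gls2_CA. The percentage of members over the marker sum thus leaned on Alb more in WT than in Gls2_CA. The part of hepatocyte content in the differences below was not tested. The 3 tumour animals with high Ttn (CAB44, CAB225 and GAB235) were also the 3 lowest in members, at 2440 to 3330 CPM against 4430 to 10400 in the other 11, and the lowest in hepatocyte markers, at 7870 to 21100 against 27500 to 117000.

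**Figure D1:**
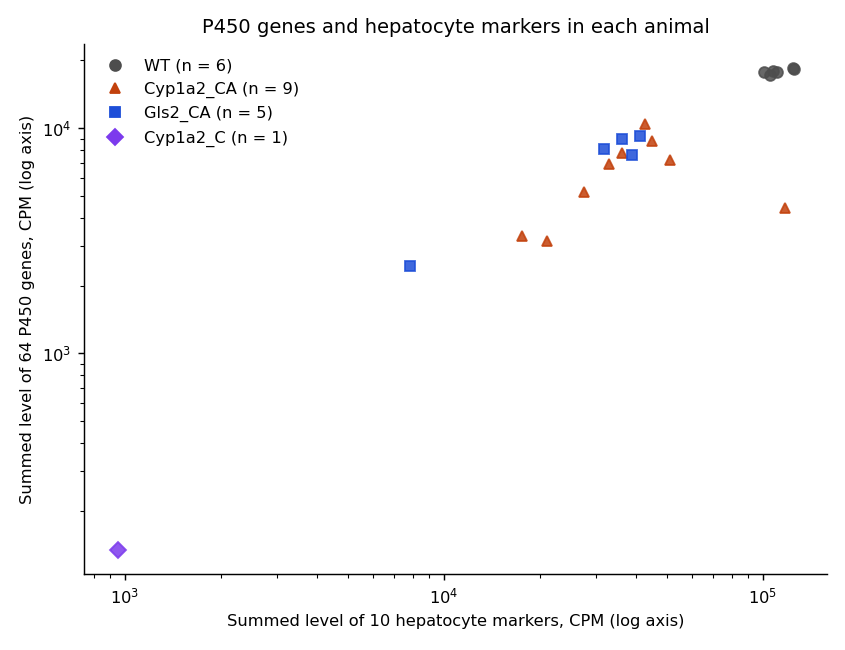
Summed level of the 64 members (CPM, y axis) against the summed level of 10 hepatocyte markers (CPM, x axis), 1 point per animal, coloured by group. The 6 WT livers lie at 17200 to 18500 CPM of members, and all tumour animals lie at or below 10400 CPM. CAB52, at 4430 CPM of members, lies within the WT range of the marker sum through its high Ahsg.

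Of the 55 members tested in Cyp1a2_CA against WT, 29 fell and 14 rose (adjusted p under 0.05, edgeR), 12 did not pass and the other 9 members had too few counts to test. Over all 16841 genes tested, 32.7% fell and 38.3% rose, 70.9% together. In Gls2_CA against WT, 25 of 52 members fell and 12 rose, where 34.0% of 14976 genes fell and 39.2% rose, 73.2% together. The median log2 fold change was -1.11 and -0.67 over the tested members and 0.17 and 0.14 over all genes tested, for Cyp1a2_CA and Gls2_CA. Past 4-fold, 16 members fell in each tumour group, against 5.88% and 6.7% of all genes, and 10 and 7 rose, against 15.6% and 14.9%. In Cyp1a2_CA 20 members lay wholly below the WT range and 4 wholly above it (20.8% and 23.4% of all genes), and in Gls2_CA 22 and 4 (26% and 29.9%).

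The 2 comparisons share the WT livers, so their calls are given side by side. In both, 25 members fell and 11 rose, and none was called in opposite directions. The share of all genes called alike or in opposite directions in both was not computed. With 70.9% and 73.2% of all genes called, whether these counts are particular to the members was therefore not tested. Cyp2a5, Cyp2d10 and Cyp2d26 fell in Cyp1a2_CA and did not pass in Gls2_CA. Cyp2r1 and Cyp4a31 rose in Cyp1a2_CA and did not pass in Gls2_CA, Cyp3a59 did the reverse, and 10 members passed in neither. Direction went with the level in WT. The 25 members with at least 100 CPM in WT were all tested, and 20 fell and 0 rose in Cyp1a2_CA, 17 and 0 in Gls2_CA, by edgeR. Of all genes at that level, 56.2% fell and 24% rose in Cyp1a2_CA, and 55.2% and 22.6% in Gls2_CA. Under 20 CPM in WT, 13 of 25 tested members rose and 7 fell in Cyp1a2_CA, where 39.2% of genes at that level rose and 27.4% fell. In Gls2_CA 11 of 22 rose and 6 fell, against 41.6% and 29.1%. A low gene passes the count filter more easily where its tumour level is high, so these counts are not a sample of all 34 low members.

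**Figure D2:**
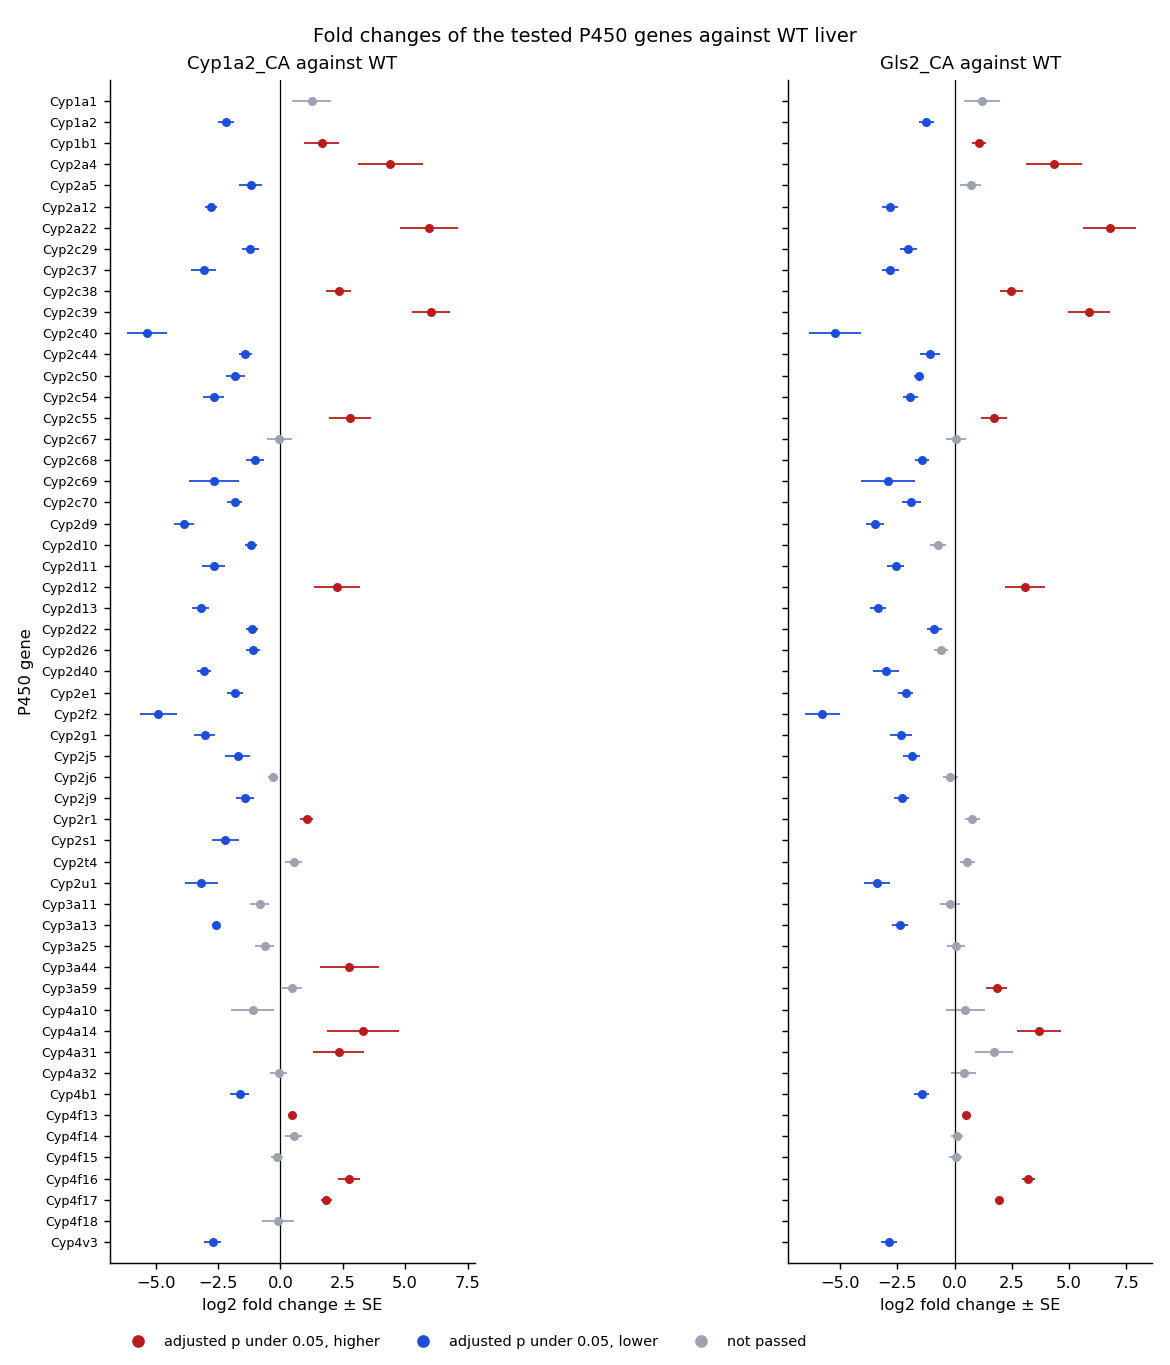
Log2 fold change (x axis) with its SE for each tested member (y axis), in Cyp1a2_CA and in Gls2_CA against WT, coloured by whether it rose, fell or did not pass. Falls reach -4.89 and -5.79 (Cyp2f2) among abundant members, and rises reach 6.03 (Cyp2c39) and 6.78 (Cyp2a22) among members that were low in WT.

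Pericentral members fell in both tumour groups. Of the 8 fixed pericentral P450 genes, 7 fell in Cyp1a2_CA and 6 in Gls2_CA, and none rose by edgeR. All 8 had at least 100 CPM in WT, a level at which 56.2% and 55.2% of all genes fell. Cyp1a2, which metabolises caffeine and aromatic amines, was at 783, 831 and 985 CPM in WT and 37.1, 231 and 289 CPM in Cyp1a2_CA. It was at 186 CPM in GAB18, 676 in GAB229, 181 in GAB235, 386 in GAB242 and 512 in GAB294. Both tumour groups lay wholly below WT. Cyp1a2 fell by 2.19 on the log2 scale (SE 0.32, adjusted p = 1.4e-05) in Cyp1a2_CA and by 1.23 (SE 0.32, adjusted p = 0.0041) in Gls2_CA. The Cyp1a2_C library had 0.36 CPM.

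Cyp2e1, which oxidises ethanol and paracetamol, was at 5600, 6014 and 6417 CPM in WT and 638, 2120 and 3259 CPM in Cyp1a2_CA. In Gls2_CA it stood at 2320 CPM in GAB18, 930 in GAB229, 642 in GAB235, 1060 in GAB242 and 2380 in GAB294. No tumour animal reached the lowest WT liver. Cyp2e1 fell by 1.80 (SE 0.32, adjusted p = 0.00012) in Cyp1a2_CA and by 2.15 (SE 0.34, adjusted p = 0.00012) in Gls2_CA. It still held the highest level per kb of transcript among members in every one of these groups, with means of 3278, 998 and 800 CPM per kb in WT, Cyp1a2_CA and Gls2_CA. Cyp2c37, Cyp2c50 and Cyp2c54, close relatives in the 2c cluster, fell by 3.08, 1.81 and 2.68 in Cyp1a2_CA (adjusted p = 4.8e-05, 0.00063 and 4e-05) and by 2.82, 1.57 and 1.94 in Gls2_CA (adjusted p = 3e-05, 2.6e-05 and 0.00017). All 3 were lower in every Gls2_CA animal than in any WT liver.

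The promoters of Cyp1a2 and Cyp2e1 are shown because these genes mark the pericentral zone and hold matches to 2 of the 4 searched motifs. The lines below give 250 bases before and 20 after the RefSeq start, in the 5′ to 3′ direction of the gene, from the RefSeq promoter table (GRCm38.p6). Capitals mark TATAAA, the TATA box, and CTTTGA, the core bound by TCF/LEF partners of β-catenin, on either strand, so that TCAAAG is CTTTGA read on the other strand. Cyp1a2 is at chr9:57683636-57683905 on the minus strand and Cyp2e1 at chr7:140763569-140763838 on the plus strand.
Cyp1a2: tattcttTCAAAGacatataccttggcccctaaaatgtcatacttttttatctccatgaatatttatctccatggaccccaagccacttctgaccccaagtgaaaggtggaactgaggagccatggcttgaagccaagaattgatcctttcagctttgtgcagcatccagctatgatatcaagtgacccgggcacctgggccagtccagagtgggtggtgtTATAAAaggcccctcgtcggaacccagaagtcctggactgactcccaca
Cyp2e1: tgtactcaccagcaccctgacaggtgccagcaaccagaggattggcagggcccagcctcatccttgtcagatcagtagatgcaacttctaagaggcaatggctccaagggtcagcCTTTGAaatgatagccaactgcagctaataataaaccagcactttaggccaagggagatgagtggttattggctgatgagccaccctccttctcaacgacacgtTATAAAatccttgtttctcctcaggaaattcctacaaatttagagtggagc
The TATA box began 29 bases before the start in Cyp1a2 and 31 in Cyp2e1, and the CTTTGA core 243 and 135 bases before it. Among the 53 members found in that table, 25 held TATAAA (47.2%) and 13 CTTTGA (24.5%) within 300 bases around the start, against 14.2% and 16.2% of all 27025 promoters. CTTTGA was present in 7 of the 23 members that fell in Cyp1a2_CA (30.4%) and in 1 of the 10 that rose (10%), and TATAAA in 14 (60.9%) and 6 (60.0%). GTTAAT, an HNF1 core, was found in 7 members (13.2%, against 7.12% of all promoters), and GCGTG, the core of the Ahr response element, in 10 (18.9%, against 32.6%), each on either strand. Such matches are letters in a window and not measured binding.

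Cyp2f2, the one member fixed as periportal and best known for bioactivating naphthalene, fell furthest among the abundant members. It was at 1305, 1523 and 1614 CPM in WT and 1.48, 56.0 and 168 CPM in Cyp1a2_CA. The Gls2_CA animals had 2.17 CPM (GAB18), 47.1 (GAB229), 6.31 (GAB235), 39.1 (GAB242) and 51 (GAB294). Thus the ranges did not touch. Cyp2f2 fell by 4.89 (SE 0.73, adjusted p = 2.2e-05) in Cyp1a2_CA and by 5.79 (SE 0.77, adjusted p = 3e-05) in Gls2_CA.

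Cyp1a1, the classic Ahr-induced hydrocarbon hydroxylase, was low everywhere, at 0.43 to 1.86 CPM in WT and 0.48 to 14.6 CPM in Cyp1a2_CA, and did not pass (log2 difference 1.25, SE 0.78, adjusted p = 0.16). In Gls2_CA Cyp1a1 ranged from 0.072 in GAB235 to 8.02 CPM in GAB229 (1.21, SE 0.80, adjusted p = 0.19). Without GAB235 this Cyp1a1 difference was 1.51 with adjusted p = 0.034. Cyp1b1, mostly expressed outside hepatocytes, was at 0.26 to 0.79 CPM in WT and 0.27 to 5.25 in Cyp1a2_CA, and rose by 1.66 (SE 0.70, adjusted p = 0.043). That call rested on few libraries: without the Ttn-high libraries Cyp1b1 differed by 0.44 (adjusted p = 0.34) and without CAB44 by 1.06 (adjusted p = 0.11). In Gls2_CA Cyp1b1 rose by 1.06 (SE 0.31, adjusted p = 0.0087). That call was lost in limma-voom on single libraries with the animal as a random effect (0.90, adjusted p = 0.14), with 3 groups in 1 fit (adjusted p = 0.18) and with an offset for length and GC (0.66, adjusted p = 0.078). The 3 animals highest in Cyp1b1 were CB6 (7.92 CPM), CAB44 (5.25) and CAB225 (3.17), and Col1a1, a collagen of fibroblasts, was at 634, 114 and 95.2 CPM there against 14.0 to 21.3 in WT. The 6 stellate and fibroblast markers summed to 876, 449 and 358 CPM in them, 306 to 407 in WT, 125 to 564 in Cyp1a2_CA and 130 to 174 in Gls2_CA. Their part in the Cyp1b1 result was not tested. Of 4 tested Ahr targets outside the P450 genes, 3 fell in each group (Tiparp, Ugt1a6a and Ugt1a6b, at -1.91, -1.75 and -1.77 in Cyp1a2_CA) and Nqo1 rose (1.56 and 2.21). Ugt1a6a and Ugt1a6b had nearly equal levels in every animal, with means of 500.9 and 498.8 CPM in WT and 157.5 and 154.9 in Cyp1a2_CA. Their falls may therefore be the same reads counted for both. Over all genes, 32.7% and 34.0% fell.

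**Figure D3:**
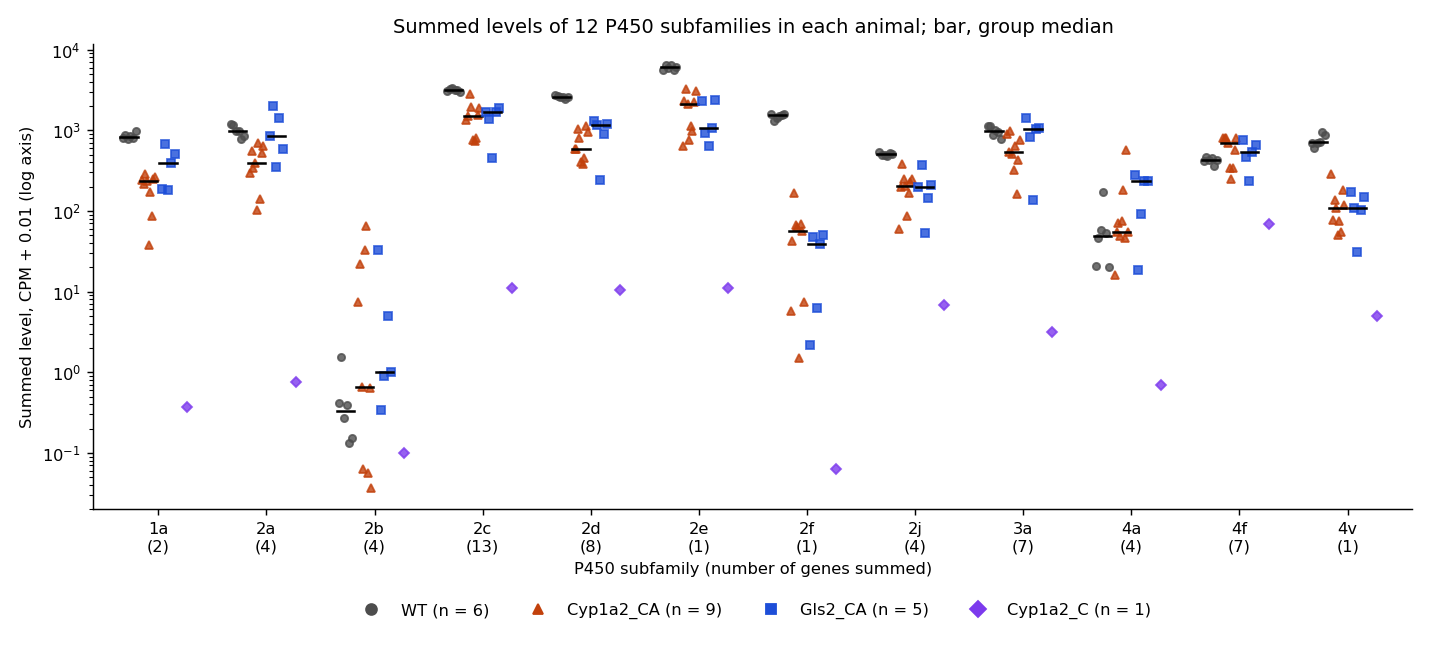
Summed level (CPM, log y axis) of 12 subfamilies (x axis) in each animal, 1 point per animal, with a bar at the group median. Tumour animals lie below the WT range for 1a, 2c, 2d, 2e, 2f, 2j and 4v, and overlap it for 2b, 3a, 4a and 4f. The 4a sum leaves out Cyp4a12a and Cyp4a12b. For 2a, Cyp1a2_CA lies below WT and Gls2_CA overlaps it.

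Sums over a subfamily are touched least by how reads of similar genes were split. The 2c sum was 3020 to 3360 CPM in WT, 731 to 2850 in Cyp1a2_CA and 453 to 1910 in Gls2_CA. The 2d sum was 2450 to 2700 CPM in WT, 381 to 1140 in Cyp1a2_CA and at most 1300 in Gls2_CA, the 2j sum 485 to 544, 59.1 to 387 and 52.9 to 376, and the 4v sum 603 to 948, 49.9 to 291 and 30.6 to 170. In these 4 subfamilies both tumour groups lay below WT. The 2a sum was 770 to 1190 CPM in WT and 102 to 700 in Cyp1a2_CA, but 348 to 2010 in Gls2_CA. Sums of 3a (781 to 1140 CPM in WT, 161 to 982 and 136 to 1400 in tumours) and 4f (363 to 472, 250 to 811 and 236 to 760) overlapped, as did 4a (20.4 to 171, 15.9 to 570 and 18.4 to 281). The 4a sum leaves out Cyp4a12a and Cyp4a12b, whose symbols fell outside the definition. Their WT means were 300.1 and 54.48 CPM, beside 61.5 CPM for the 4a sum, and both fell in each tumour group. The overlap therefore does not describe all 4a genes. The 2b sum, 0.12 to 1.55 CPM in WT, was 0.027 to 64.7 in Cyp1a2_CA and 0.33 to 32.5 in Gls2_CA, highest in CAB52 and GAB18.

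The 4 members of subfamily 2a did not move as 1 unit. Cyp2a22 (chr7:26931631-26939384, minus strand) and Cyp2a12 (chr7:27029081-27037375, plus strand) are neighbours in the GENCODE M21 annotation of GRCm38. Cyp2a12, which hydroxylates bile acids, was at 484, 515 and 610 CPM in WT and 30.4, 88.0 and 127 CPM in Cyp1a2_CA. In Gls2_CA Cyp2a12 was at 135 CPM in GAB18, 99.9 in GAB229, 21.7 in GAB235, 61.9 in GAB242 and 77.2 in GAB294. Every tumour animal was thus below every WT liver. Cyp2a12 fell by 2.77 (SE 0.24, adjusted p = 5.3e-08) and by 2.84 (SE 0.36, adjusted p = 2.1e-05).

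Its neighbour Cyp2a22 did the opposite. Cyp2a22 was at 0.24, 0.54 and 1.26 CPM in WT and 1.29, 16.3 and 185 CPM in Cyp1a2_CA. Among Gls2_CA animals, GAB18 had 292 CPM, GAB229 6.09, GAB235 3.10, GAB242 30.0 and GAB294 79.7. All 14 tumour animals lay above WT, by a margin that varied widely. The rise was 5.96 (SE 1.17, adjusted p = 0.0003) in Cyp1a2_CA and 6.78 (SE 1.15, adjusted p = 0.00023) in Gls2_CA. Without CAB228 the Cyp2a22 rise was 5.26, and without GAB18 5.32. Per kb of transcript, mean levels of Cyp2a12 and Cyp2a22 in WT were 311 and 0.38 CPM per kb, and in Gls2_CA 47.1 and 45.8, the latter led by GAB18. In Cyp1a2_CA these means were 48.4 and 25.1 CPM per kb.

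Coding sequences of Cyp2a12 and Cyp2a22 are 97.0% identical over 1476 bases, so reads between these 2 genes could also have been split or dropped. Their promoters are shown because genes this alike moved in opposite directions, and can be compared over 289 aligned bases of the 300-base windows, where identity was 90.7%. Cyp2a12 is at chr7:27028840-27029109 on the plus strand and Cyp2a22 at chr7:26939367-26939636 on the minus strand, with capitals as above.
Cyp2a12: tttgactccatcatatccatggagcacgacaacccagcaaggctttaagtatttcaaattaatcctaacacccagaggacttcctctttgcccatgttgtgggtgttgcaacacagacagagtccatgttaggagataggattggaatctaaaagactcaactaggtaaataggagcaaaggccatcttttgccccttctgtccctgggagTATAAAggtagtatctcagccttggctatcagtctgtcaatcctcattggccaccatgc
Cyp2a22: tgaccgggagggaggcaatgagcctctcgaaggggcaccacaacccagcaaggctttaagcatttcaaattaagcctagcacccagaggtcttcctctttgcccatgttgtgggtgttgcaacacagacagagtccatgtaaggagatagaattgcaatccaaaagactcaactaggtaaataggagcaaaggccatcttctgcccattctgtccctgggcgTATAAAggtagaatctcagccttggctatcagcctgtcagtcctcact
Each held a TATA box, 39 bases before the start in Cyp2a12 and 28 in Cyp2a22, and no CTTTGA in this window.

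Cyp2a5, the coumarin hydroxylase, and Cyp2a4, a female-biased testosterone hydroxylase, share 98.4% of their coding sequence, so reads between them could have been split or dropped. Cyp2a5 was at 279, 467 and 660 CPM in WT and 21, 232 and 463 CPM in Cyp1a2_CA. Its Gls2_CA levels were 386 CPM in GAB18, 1770 in GAB229, 308 in GAB235, 1170 in GAB242 and 426 in GAB294. Cyp1a2_CA reached from below WT into its range, and 2 Gls2_CA animals exceeded every WT liver. Cyp2a5 fell by 1.18 (SE 0.46, adjusted p = 0.032) in Cyp1a2_CA, a call lost without BL1 (-1.11, adjusted p = 0.062) or BL2 (-1.05, adjusted p = 0.072). In Gls2_CA Cyp2a5 did not pass (0.70, SE 0.45, adjusted p = 0.17). Cyp2a4 was at 0.066, 0.69 and 9.63 CPM in WT and 1.44, 31.3 and 292 in Cyp1a2_CA, and at 35.7, 134, 15, 137 and 4.25 CPM in GAB18, GAB229, GAB235, GAB242 and GAB294. The groups overlapped because of BL4 (9.63 CPM) and BL2 (6.71). Cyp2a4 rose by 4.40 (SE 1.31, adjusted p = 0.0072) and 4.33 (SE 1.22, adjusted p = 0.0068). Without BL4 these Cyp2a4 rises were 5.25 and 5.17, and without CAB52 the first was 3.62. With the animal as a random effect the Cyp2a4 rise in Gls2_CA was 4.96 and did not pass (adjusted p = 0.058).

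**Figure D4:**
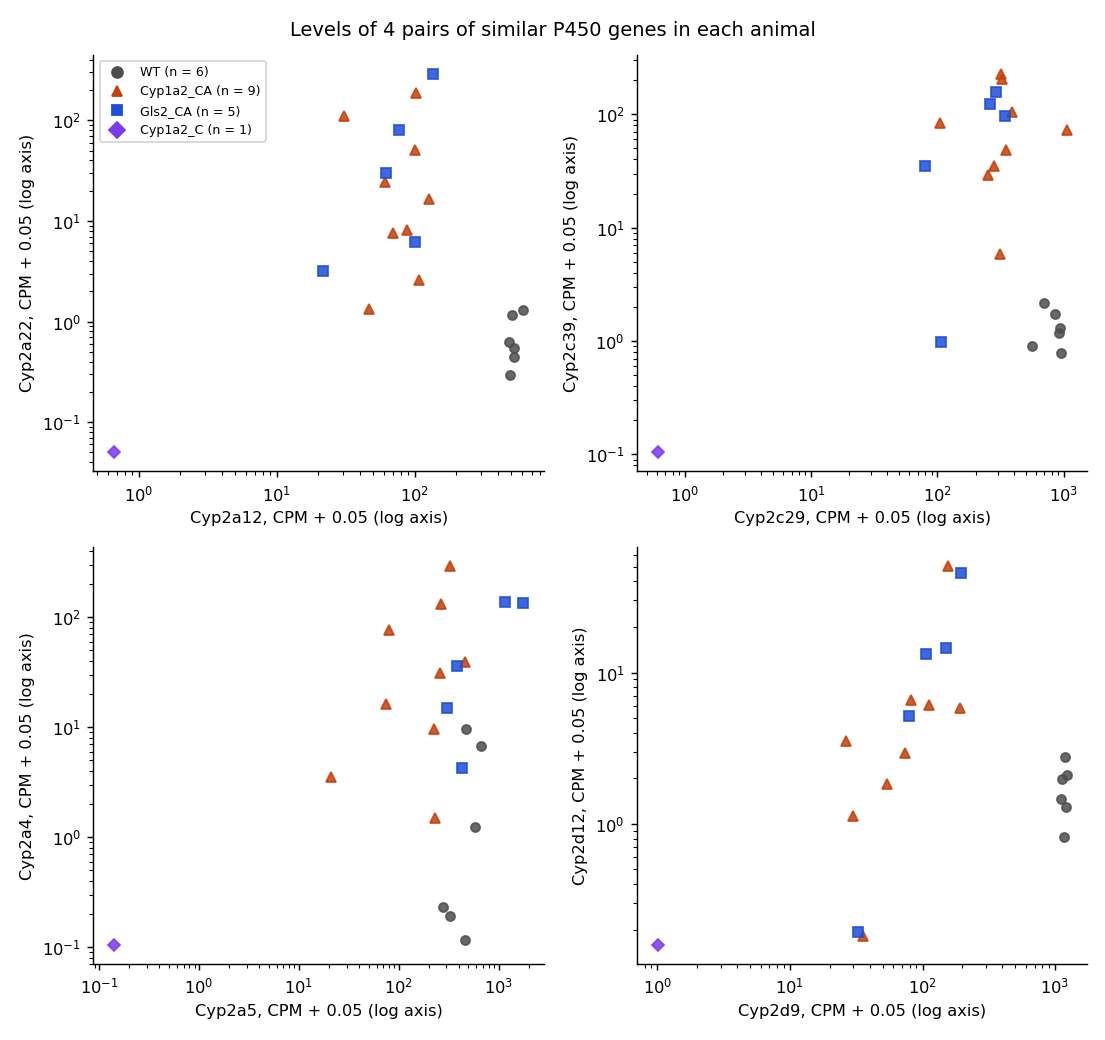
Levels (CPM, log axes) of 4 pairs of similar members in each animal, 1 point per animal, coloured by group, with the member that fell on 1 axis and the member that rose on the other. WT livers sit at high Cyp2a12, Cyp2a5, Cyp2c29 and Cyp2d9 with low partners. Most tumour animals move toward lower values of the first (Cyp2a5 in Cyp1a2_CA) and higher values of Cyp2a22, Cyp2a4, Cyp2c39 and Cyp2d12. For Cyp2d12, CAB44 and GAB235 lie below every WT liver, and CAB170 and CAB52 lie within the WT range.

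Of the 13 members of subfamily 2c, 9 fell and 3 rose in each tumour group. Over all genes tested, 32.7% and 34.0% fell and 38.3% and 39.2% rose in Cyp1a2_CA and Gls2_CA. Cyp2c29, a pericentral fatty acid epoxygenase, was at 562, 884 and 943 CPM in WT and 105, 319 and 1058 CPM in Cyp1a2_CA. In Gls2_CA Cyp2c29 levels were 292 CPM in GAB18, 79.4 in GAB229, 106 in GAB235, 261 in GAB242 and 344 in GAB294. Gls2_CA lay wholly below WT, and of the Cyp1a2_CA animals CAB26 alone exceeded the lowest WT liver, with the next, CAB170, at 392 CPM. Cyp2c29 fell by 1.21 (SE 0.34, adjusted p = 0.0051) and by 2.03 (SE 0.36, adjusted p = 0.00032). Cyp2c39, a retinoic acid hydroxylase, rose instead. It was at 0.73, 1.19 and 2.12 CPM in WT and 5.79, 72.9 and 228.8 CPM in Cyp1a2_CA. Its levels in GAB18, GAB229, GAB235, GAB242 and GAB294 were 159, 34.9, 0.936, 124 and 97.4 CPM. GAB235 alone fell inside the WT range. The rise of Cyp2c39 was 6.03 (SE 0.76, adjusted p = 3.2e-06) in Cyp1a2_CA and 5.88 (SE 0.92, adjusted p = 0.00012) in Gls2_CA.

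The Cyp2c29 and Cyp2c39 coding sequences were 89.5% identical, and their promoter windows 80.5% over 277 aligned bases. They are printed for the same reason as the 2a pair. Cyp2c29 is at chr19:39286835-39287104 and Cyp2c39 at chr19:39510572-39510841, both on the plus strand.
Cyp2c29: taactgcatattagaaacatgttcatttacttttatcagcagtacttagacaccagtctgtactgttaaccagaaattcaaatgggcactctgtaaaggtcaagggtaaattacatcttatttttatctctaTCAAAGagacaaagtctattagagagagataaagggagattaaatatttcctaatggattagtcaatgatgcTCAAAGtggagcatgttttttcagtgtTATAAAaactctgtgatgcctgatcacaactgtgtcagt
Cyp2c39: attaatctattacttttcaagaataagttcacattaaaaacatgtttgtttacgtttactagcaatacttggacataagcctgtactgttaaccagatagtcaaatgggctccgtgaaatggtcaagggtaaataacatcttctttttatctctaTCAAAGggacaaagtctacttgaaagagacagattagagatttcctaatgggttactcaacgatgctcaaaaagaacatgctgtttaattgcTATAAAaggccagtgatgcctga
CTTTGA, on the opposite strand, began 118 and 46 bases before the start in Cyp2c29 and 95 bases before it in Cyp2c39, the single riser among 10 with a match. TATAAA began 19 and 3 bases before the RefSeq starts.

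Cyp2c38, 94.2% identical to Cyp2c39 in coding sequence, rose by 2.33 (SE 0.49, adjusted p = 0.00059) and 2.47 (SE 0.51, adjusted p = 0.00093), from 5.59 to 24.6 CPM in WT to 16.0 to 145.3 in Cyp1a2_CA and 31.6 to 169 in Gls2_CA. Cyp2c55 rose by 2.79 (SE 0.84, adjusted p = 0.0077) and 1.73 (SE 0.57, adjusted p = 0.016). Without CAB145, which held 63.0 CPM of Cyp2c55, its rise in Cyp1a2_CA was 2.05. The Gls2_CA call of Cyp2c55 was lost with the animal as a random effect (1.35, adjusted p = 0.18) and with 3 groups in 1 fit (1.73, adjusted p = 0.094). Cyp2c70, which makes the muricholic bile acids of mice, fell by 1.84 (SE 0.31, adjusted p = 7.1e-05) and 1.89 (SE 0.41, adjusted p = 0.0014), with no overlap between WT (514 to 1122 CPM) and tumours (82.2 to 366 and 57.1 to 357). Cyp2c67 was the only 2c member that passed in neither group, at 287 CPM ± 37.7 (SD, n = 6) in WT and a log2 difference of -0.04 (SE 0.49) and 0.07 (SE 0.44). The level of Cyp2c67 still ranged from 42.4 to 651 CPM among Cyp1a2_CA animals and from 53.4 to 615 among Gls2_CA animals. Reads of Cyp2c40, Cyp2c67, Cyp2c68 and Cyp2c69 are uncertain, with coding identities of 96.5% to 98.1% among them. Cyp2c38, Cyp2c50, Cyp2c54, Cyp2c67, Cyp2c68, Cyp2c70, Cyp2a12, Cyp2d10, Cyp3a13, Cyp4f13, Cyp4f17, Cyp4a31 and Cyp3a59 were chosen for naming after their values were seen.

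In subfamily 2d, 7 of 8 members fell in Cyp1a2_CA and 5 in Gls2_CA, beside 32.7% and 34.0% of all genes, and Cyp2d12 rose in both. Cyp2d9, a male-biased testosterone hydroxylase, was at 1111, 1171 and 1234 CPM in WT and 26.5, 74.3 and 193 in Cyp1a2_CA, and at 151, 195, 32.4, 79.0 and 106 CPM in GAB18, GAB229, GAB235, GAB242 and GAB294. The WT livers lay within a narrow band and every tumour animal far below it. Cyp2d9 fell by 3.86 (SE 0.40, adjusted p = 4.2e-07) and 3.49 (SE 0.38, adjusted p = 5.8e-06). Cyp2d13 and Cyp2d40 fell by 3.20 and 3.06 in Cyp1a2_CA (adjusted p = 4.8e-07 and 8.3e-08) and by 3.35 and 3.0 in Gls2_CA (adjusted p = 6.5e-06 and 0.00055). Cyp2d26, which had the highest mean of the subfamily over all animals but lay below Cyp2d9 in WT (666 against 1168 CPM), fell by 1.09 (SE 0.27, adjusted p = 0.0022) in Cyp1a2_CA and was at -0.60 (SE 0.31, adjusted p = 0.096) in Gls2_CA, where GAB235 had 128 CPM and the others 460 to 672. Without GAB235 the Cyp2d26 difference was smaller (-0.36) and passed (adjusted p = 0.012). Cyp2d12, at 0.77 to 2.72 CPM in WT and 92.1% identical to Cyp2d9, rose by 2.27 (SE 0.93, adjusted p = 0.04) and 3.09 (SE 0.88, adjusted p = 0.0074). Tumour levels of Cyp2d12 were 0.13 to 50.3 CPM in Cyp1a2_CA and 0.14 to 45.4 in Gls2_CA. CAB44 and GAB235 lay below every WT liver. The first Cyp2d12 call rested on CAB239, with 50.3 CPM (0.96, adjusted p = 0.17 without it). That call was lost in 10 of 27 alternatives, among them leaving out any 1 of BL1 to BL5. The second was 2.16 without GAB229. With limma-voom and the animal as a random effect the second Cyp2d12 call was lost (1.80, adjusted p = 0.31).

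Fatty acid epoxygenases of subfamily 2j were led by Cyp2j5, at 413 to 451 CPM in WT, 9.42 to 283 in Cyp1a2_CA and 32.5 to 239.2 in Gls2_CA, with no overlap. Cyp2j5 fell by 1.72 (SE 0.49, adjusted p = 0.0052) and 1.89 (SE 0.37, adjusted p = 0.0006). Cyp2u1, a long-chain fatty acid hydroxylase, fell by 3.18 (SE 0.66, adjusted p = 0.00047) and 3.38 (SE 0.57, adjusted p = 0.0002), from 45.9 to 61.6 CPM in WT to 0.83 to 29.5 and 0.87 to 14.3. Without CAB26 the Cyp2u1 fall was -4.08 and without GAB229 -4.09. Cyp2r1, a vitamin D hydroxylase, rose by 1.05 (SE 0.25, adjusted p = 0.0017) in Cyp1a2_CA and differed by 0.77 (SE 0.34, adjusted p = 0.055) in Gls2_CA, or by 0.98 (adjusted p = 0.0047) without GAB235. Among members under 2 CPM in every group, Cyp2g1 fell by 3.04 and 2.35 (adjusted p = 7.6e-06 and 0.00082), Cyp2s1 fell by 2.21 (adjusted p = 0.0019) in Cyp1a2_CA, and Cyp2t4 differed by 0.53 and 0.55 (adjusted p = 0.16 and 0.15).

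Subfamily 3a, which handles the widest range of drugs, held its level better. Cyp3a11, the main hepatic form, was at 531, 690 and 739 CPM in WT and 63.6, 409 and 769 in Cyp1a2_CA, and at 1010, 530, 69.0, 819 and 671 CPM in GAB18, GAB229, GAB235, GAB242 and GAB294. Tumour animals lay on both sides of the WT range. Cyp3a11 did not pass in either (-0.82, SE 0.38, adjusted p = 0.065, and -0.21, SE 0.45, adjusted p = 0.68), and in Cyp1a2_CA 8 alternatives passed, such as upper-quartile scaling at -1.05 (adjusted p = 0.022). Cyp3a13, its relative, fell by 2.59 (SE 0.16, adjusted p = 1.6e-09) and 2.40 (SE 0.34, adjusted p = 5.9e-05), with 87.0 to 172 CPM in WT, 14.4 to 26.2 in Cyp1a2_CA and 6.34 to 32.6 in Gls2_CA. Cyp3a59 rose by 1.83 (SE 0.47, adjusted p = 0.0042) in Gls2_CA and was at 0.47 (SE 0.41, adjusted p = 0.32) in Cyp1a2_CA. The Cyp3a59 call was lost with the animal as a random effect (1.46, adjusted p = 0.082). Its coding sequence is 97.5% identical to that of Cyp3a25, which passed in neither, so its reads are uncertain.

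Family 4 enzymes hydroxylate the ends of fatty acids and eicosanoids. Cyp4a14, a Ppara target, was at 0.57, 2.63 and 23.2 CPM in WT and 1.74, 5.84 and 466 in Cyp1a2_CA. In Gls2_CA it was at 130 CPM in GAB18, 5.65 in GAB229, 51.1 in GAB235, 129 in GAB242 and 81.6 in GAB294. All Gls2_CA animals but GAB229 exceeded every WT liver, while 1 Cyp1a2_CA animal, CAB228, held 466 CPM and the next, CAB44, 47.4. Cyp4a14 rose by 3.32 (SE 1.44, adjusted p = 0.0498) in Cyp1a2_CA, and by 3.69 (SE 0.97, adjusted p = 0.0047) in Gls2_CA. Without CAB228 the first value for Cyp4a14 was 0.85 (adjusted p = 0.41), and without BL4 the values were 4.66 and 5.01. The first Cyp4a14 call was lost in 13 of 26 alternatives, among them leaving out any 1 of BL1, BL2, BL3, BL5 and BL6. Cyp4a10, its companion, did not pass (-1.11, SE 0.87, adjusted p = 0.26, and 0.46, SE 0.86, adjusted p = 0.64), and without CAB228 it was at -2.21 (adjusted p = 0.012) in Cyp1a2_CA. Cyp4a31 rose by 2.33 (SE 1.01, adjusted p = 0.049) in Cyp1a2_CA, where CAB52 held 172 CPM, and was at 0.85 (adjusted p = 0.25) without that animal. This Cyp4a31 call was lost in 14 of 27 alternatives, among them DESeq2 (0.83, adjusted p = 0.21). Of 12 Ppara targets outside the P450 genes, 4 rose and 3 fell in each group, with Plin2 at 2.02 and 1.65. Over all genes, 38.3% and 39.2% rose and 32.7% and 34.0% fell.

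Subfamily 4f, which inactivates leukotrienes, had 3 members that rose and none that fell in either group by edgeR. These were of 6 tested in Cyp1a2_CA and 5 in Gls2_CA, where 38.3% and 39.2% of all genes rose. Cyp4f16 was at 0.86, 1.43 and 1.72 CPM in WT and 3.77, 9.41 and 28.2 in Cyp1a2_CA, and at 11.4, 20, 18.4, 8.67 and 9.04 CPM in GAB18, GAB229, GAB235, GAB242 and GAB294. No tumour animal overlapped WT, and the Cyp1a2_C library, at 18.8 CPM, was also above it. Cyp4f16 rose by 2.75 (SE 0.44, adjusted p = 3.7e-05) and 3.22 (SE 0.29, adjusted p = 1.3e-06). Cyp4f17 rose by 1.85 (SE 0.23, adjusted p = 2.3e-06) and 1.94 (SE 0.16, adjusted p = 5.7e-07), with 6.25 to 8.61 CPM in WT, 14.7 to 45.8 and 20.8 to 40.1 in tumours and 19.7 in Cyp1a2_C. Cyp4f13 rose by 0.45 (SE 0.17, adjusted p = 0.022) and 0.50 (SE 0.16, adjusted p = 0.015), and did not pass with upper-quartile scaling (0.23, adjusted p = 0.22, and 0.28, adjusted p = 0.15). Cyp4f14, the most abundant of them, was at 211 to 286 CPM in WT, 91.7 to 602 in Cyp1a2_CA and 119 to 473 in Gls2_CA, and did not pass (0.52, SE 0.34, adjusted p = 0.17, and 0.10, SE 0.26, adjusted p = 0.74). Cyp4v3, whose human counterpart is CYP4V2, fell by 2.71 (SE 0.33, adjusted p = 2.6e-06) and 2.86 (SE 0.35, adjusted p = 1.7e-05), with no overlap. Cyp4b1 fell by 1.64 and 1.44 (adjusted p = 0.0014 and 0.0016).

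Members known to differ between the sexes moved unevenly. The male-biased list (Cyp2d9, Cyp4a12a and Cyp4a12b) fell in 3 of 3 genes in both groups, where 32.7% and 34.0% of all genes fell. Cyp4a12a was at 154 to 472 CPM in WT and at most 131 CPM in tumours, with 0.31 CPM in CAB52, and fell by 2.74 (adjusted p = 0.0046) and 2.63 (adjusted p = 0.0016). The fall of Cyp4a12b in Gls2_CA, by 1.18 (adjusted p = 0.0451), was lost without, for example, GAB294 (-0.97, adjusted p = 0.094) or BL1 (-1.15, adjusted p = 0.075). Of the 9 female-biased genes, Cyp2a4 rose in both groups, and Cyp2c40 and Cyp2c69 fell in both. Cyp2c40 was at 3.23, 9.87 and 58.6 CPM in WT and 0.046 to 1.71 in Cyp1a2_CA, and at 0.024 to 1.47 in Gls2_CA, all below WT. The falls of Cyp2c40 were -5.35 (SE 0.80, adjusted p = 2.1e-05) in Cyp1a2_CA and -5.23 (SE 1.14, adjusted p = 0.0013) in Gls2_CA. Without BL4 they were -4.43 and -4.35, without CAB52 the first was -5.95, and without GAB242 the second was -6.26. With quality weights in limma-voom the Cyp2c40 fall in Gls2_CA did not pass (-4.45, adjusted p = 0.078). Cyp2c69 fell by 2.66 (SE 1.01, adjusted p = 0.027) and 2.91 (SE 1.19, adjusted p = 0.043), calls lost without BL4 (-1.59, adjusted p = 0.17, and -1.86, adjusted p = 0.14). Leaving out CAB52 moved the first Cyp2c69 value to -4.33, and leaving out GAB242 the second to -5.27.

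The other female-biased genes were nearly silent in WT, and most were too low there to test. Cyp2b9 had 7 WT counts in 2 of 6 livers, yet reached 47.9 CPM in CAB52, 32.4 in CAB44, 22.5 in GAB18 and 11.2 in CAB170, and was at 0 in 3 Cyp1a2_CA animals. Cyp2b13 had 3 WT counts and reached 16.3 CPM in CAB52 and 9.87 in GAB18. Cyp3a16 had 2 WT counts and held 132 CPM in CAB52, with 1.52 in the next Cyp1a2_CA animal and at most 2.27 in Gls2_CA. Cyp3a41a had 0 WT counts and reached 32.3 CPM in CAB145, where Cyp3a41b stood at 18. Set against 3 counts in the pooled WT livers (0.0319 CPM), the mean of Cyp3a41a was at least 132-fold higher in Cyp1a2_CA and at least 15.2-fold higher in Gls2_CA. Single animals set these means: without CAB145 the first bound for Cyp3a41a was 21.9-fold, and without GAB294 the second was 7.58-fold, a setting chosen after seeing the data. The Cyp3a41a median was 0.15 CPM in Cyp1a2_CA. Cyp3a44 rose by 2.76 (SE 1.18, adjusted p = 0.0459) in Cyp1a2_CA, led by CAB52 at 8.65 CPM, a call lost when any 1 WT liver was left out (adjusted p = 0.057 to 0.083). Levels differed from animal to animal and gene to gene, so that CAB145 was high in Cyp3a41a and low in Cyp2b9, and CAB44 the reverse. Every animal had the Y-linked transcripts Ddx3y (35.8 to 192 CPM) and Uty (30.8 to 348 CPM). Xist was at most 19 CPM in all animals but CB6, which held 108.

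**Figure D5:**
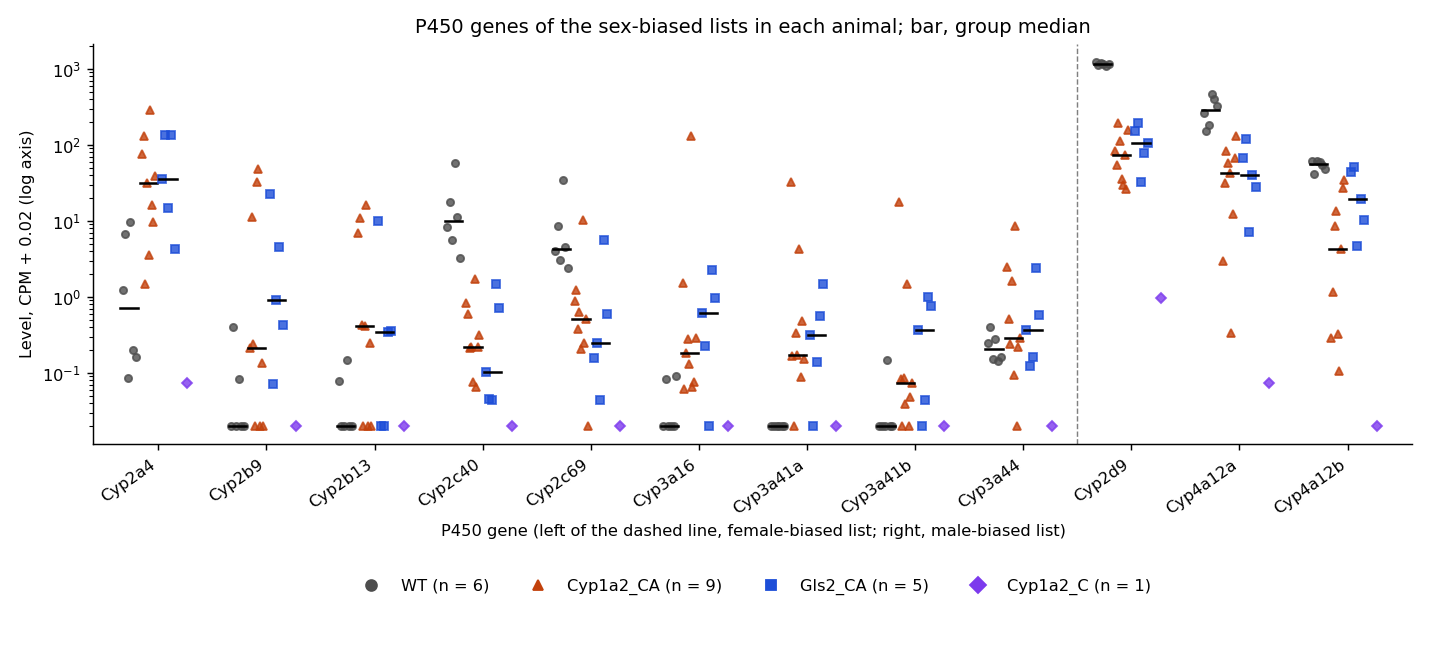
Levels (CPM + 0.02, log y axis) of the female-biased and male-biased P450 genes (x axis, left and right of the dashed line) in each animal, with a bar at the group median. Cyp2a4 is higher and Cyp2c40 lower in tumours, single animals such as CAB52 stand out for Cyp3a16 at 132 CPM, and Cyp2d9 is at most 195 CPM in tumours against at least 1111 in WT.

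Cyp2b10, the standard target of Nr1i3, was not tested, with 35 counts in WT (0.12 to 1.16 CPM) and at most 0.36 CPM in any tumour animal of the compared groups. Nr1i3 itself rose by 1.51 (SE 0.30, adjusted p = 0.00034) in Cyp1a2_CA and 1.60 (SE 0.27, adjusted p = 0.00021) in Gls2_CA. Among 19 tested regulators 7 rose in each group and 4 and 2 fell, beside 38.3% and 39.2% of all genes that rose and 32.7% and 34.0% that fell. Arnt, the Ahr partner, rose by 1.28 and 1.39, Stat5b, which carries the growth hormone signal, by 1.04 and 1.20, and Onecut1 fell by 3.25 and 4.45. Cux2, a factor enriched in female liver, was at 0.46 to 1.35 CPM in WT and 355 CPM in CAB52, where Cyp3a16, Cyp2a4, Cyp2b9, Cyp2b13 and Cyp3a44 were each at their highest. Cux2 was also far above WT in GAB235 (90.3 CPM), CB6 (86.3), CAB225 (60.2), CAB44 (44.3) and GAB242 (41.0). The female-biased genes differed among these animals. GAB235 had Cyp3a16 and Cyp2b13 at 0 and Cyp2a4 at 15 CPM. CAB225 had Cyp2b9, Cyp2b13 and Cyp3a44 at 0 and Cyp2a4 at 16.2. CAB44 had Cyp2b9 at 32.4 CPM and Cyp2a4 at 3.5. GAB242 had Cyp2a4 at 137 CPM, Cyp2b9 at 4.47, Cyp3a44 at 2.36 and Cyp3a16 at 2.27. CB6 had Cyp2a4 at 0.054 CPM and Cyp2b9, Cyp2b13, Cyp3a16 and Cyp3a44 at 0. The part of Cux2 in these levels was not tested.

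The supporting enzymes were counted from the same fits. In these, 32.7% of all genes fell and 38.3% rose in Cyp1a2_CA, and 34.0% fell and 39.2% rose in Gls2_CA. Among 6 redox partners, 5 fell in Cyp1a2_CA and 4 in Gls2_CA. Por fell by 1.14 (SE 0.27, adjusted p = 0.0014) in Cyp1a2_CA and was at -0.28 (SE 0.26, adjusted p = 0.35) in Gls2_CA. Of 8 genes of heme synthesis, 4 fell and 2 rose in each group. Alas1, the first and rate-limiting step, fell by 3.43 and 3.18 (adjusted p = 6.5e-07 and 4.1e-05), while Uros rose by 1.68 and 1.73 and Ppox by 1.44 and 1.42. Of 4 genes of heme breakdown, 2 rose in Cyp1a2_CA and 1 in Gls2_CA. Blvrb, a biliverdin reductase, rose by 1.16 (adjusted p = 0.0046) and 1.32 (adjusted p = 0.0017). Of 2 tested epoxide hydrolases, Ephx1 was at 0.38 (adjusted p = 0.26) in Cyp1a2_CA and rose by 1.13 (adjusted p = 0.016) in Gls2_CA, a call lost without GAB229 (0.85, adjusted p = 0.0515). Ephx2 did not pass in either. Of the 13 tested P450 genes of families 5 and above, which act mainly on sterols, 8 and 6 fell and 1, Cyp20a1, rose. Cyp8b1, which sets the 12-hydroxylation of bile acids, fell by 3.14 and 3.97 (adjusted p = 4.7e-05 and 2.6e-05). Summed, these 14 genes were at 1360 to 1740 CPM in WT, 250 to 836 in Cyp1a2_CA and 222 to 856 in Gls2_CA, and the ratio of means (2.77 and 2.4) was close to that of families 1 to 4.

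Direct comparison of the tumour groups called 0 of 57 tested members and 0 of 17129 genes (0.0%) by edgeR. No member had non-overlapping groups, against 0.0409% of genes wholly higher and 0.0467% wholly lower in Cyp1a2_CA. At unadjusted p under 0.05, 3 members (5.26%) and 554 genes (3.23%) differed. DESeq2 called 7 genes higher and 12 lower in Cyp1a2_CA, limma-voom with quality weights 0 and 10, and edgeR with every library as a replicate 1 and 5, none of them a member. The 3 members were Cyp1a2, Cyp2a5 and Cyp3a59, with log2 differences of -0.97 (SE 0.42, p = 0.038), -1.89 (SE 0.59, p = 0.0061) and -1.37 (SE 0.55, p = 0.024), each lower in Cyp1a2_CA and each at adjusted p = 1.0. Cyp2e1 differed by 0.34 (SE 0.44) and Cyp2f2 by 0.88 (SE 0.93), errors wide enough that neither a likeness nor a difference was shown. The labelled Cre driver of 1 group is built on Cyp1a2, and its part in the Cyp1a2 difference cannot be told apart from the rest. The Cyp1a2_C library, without floxed Arid2 and with no replicate, lay far lower than any animal in the comparisons, with 11.2 CPM of Cyp2e1, 0.61 of Cyp2a12 and 0.95 of Cyp2d9, beside hepatocyte markers of 954 CPM.

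Members varied more between tumours than genes in general did, in sets that were not matched for level. On log2 CPM with 2 added, the SD over the 14 tumour animals had a median of 0.855 for the 55 members reaching 1 CPM in a tumour animal and 0.363 for the 16962 such genes. The same medians over WT livers were 0.193 and 0.141. Adding 2 narrows the spread of low genes, and 25 of the 64 members had at least 100 CPM in WT, against 1316 of 16841 tested genes. A gene could also enter through 1 tumour animal alone. The part of level and of this entry rule in the contrast was not tested. The widest were Cyp4a14 (SD 2.23), Cyp2a22 (2.08), Cyp2a4 (1.98) and Cyp2c39 (1.78), which rose, and Cyp2f2 (1.77), which fell. Libraries sharing an animal number also differed: in GAB242, Cyp2a22 was at 25.5, 57.6 and 4.94 CPM in libraries S, M and L, and Cyp2c39 at 166, 177 and 21.2. In GAB294 the Cyp2a22 levels, 73.4, 70.1 and 87.5 CPM, were close together, while Cyp2f2 was at 126, 1.22 and 25.0.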

How the data were processed

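Bulk RNA-seq of 26 libraries was used. The values are whole-number counts per gene symbol in 1 table, as deposited by the authors without normalization. The submitters' processing notes give the build as mm10. For aligner, counter, strand setting and gene models, the status is: not given in the sources used here (labels and file header). The labels' protocols state TRIzol and column extraction of frozen tumour fragments and Nugen Ovation libraries on a single flow cell.

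Groups followed the genotype labels. Libraries with the same number in the title were added into 1 animal. Each pair of groups was fitted alone in R 4.3.3 with edgeR 4.0.16 (filterByExpr, TMM scaling, robust quasi-likelihood fit and test). The p-values were adjusted by Benjamini-Hochberg over all genes tested, with a threshold of 0.05, two-sided. "Rose" and "fell" mean past that threshold. CPM are relative to TMM-scaled totals. A single count behind a WT level is a coarse step: 3 counts are 0.172 to 0.215 CPM in a WT library, which covers counting error only. Alternatives used DESeq2 1.42.0 and limma 3.58.1. The scripts were tested on simulated data first.

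The members and gene lists were chosen with earlier results of these data known. Members named with values were, in each subfamily, the one with the highest mean CPM over all animals, the 6 largest rises and 6 largest falls per comparison whose mean reached 1 CPM in the higher group, and a fixed set of well-known and sex-biased members. Up to 4 genes of each other list were named, those with the smallest p, with Cux2 and the hepatocyte and muscle genes added after their values were seen. A gene chosen by this rule is not reported here. Promoter sequences are from a RefSeq table (GRCm38.p6) that held 53 of the 64 members. Gene spans, lengths and coding sequences are from GENCODE M21, matched by symbol (62 of 64 with a coding sequence), and identity came from global alignment in Biopython 1.88. A planned comparison of proteins was not made. Members with near-identical partners can share reads: 16 have a partner with at least 95% coding identity.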

Additional observations from a re-analysis of the deposited data

Results flagged for a closer look

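Among 111 group and gene combinations examined (36 genes and the sum of all members, in 3 groups), 17 had an animal farther from its group than Dixon's 95% limit allows, and chance alone gives about 1 in 20. In Cyp1a2_CA, CAB52 stood out high for Cyp1a1 (14.6 CPM, next animal 2.23), Cyp2c69 (10.4, next 1.21), Cyp3a16 (132, next 1.52), Cyp3a44 (8.65, next 2.43) and Cyp4f16 (28.2, next 10.9). In the same group, CAB239 stood out for Cyp2d12 (50.3 CPM, next 6.53), CAB26 for Cyp2u1 (29.5, next 6.29) and CAB228 for Cyp4a10 (80.9, next 13.5).

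In Gls2_CA, GAB235 was low for Cyp3a11 (69.0 CPM, next 530), for Cyp2d26 (128, next 460) and for the sum of all members (2440, next 7580). GAB242 was high for Cyp2c69 (5.61 CPM, next 0.573) and Cyp3a44 (2.36, next 0.564), GAB18 for Cyp2b13 (9.87, next 0.342) and GAB294 for Cyp2b10 (0.222, next 0.0348). Among WT livers, BL2 was high for Cyp2b10 (1.16 CPM, next 0.344) and Cyp2b9 (0.387, next 0.0642). These rest on 18 counts of Cyp2b10 and 6 of Cyp2b9 in BL2, and on 24 of Cyp2b10 in GAB294.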

How the results depend on the processing

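No paired analysis was possible because the groups came from mice of different genotypes, so no animal was shared between them. Across the alternatives no called direction reversed. Counts that moved by over 1.5 times were the members that rose in Cyp1a2_CA, 8 in place of 14 with upper-quartile scaling (Cyp1b1, Cyp2d12, Cyp3a44, Cyp4a14, Cyp4a31 and Cyp4f13 were lost), and those that rose in Gls2_CA, 7 in place of 12 with limma-voom and the animal as a random effect (Cyp1b1, Cyp2a4, Cyp2c55, Cyp2d12 and Cyp3a59 were lost). Upper-quartile scaling moved the median log2 fold change of all genes from 0.17 to -0.05 in Cyp1a2_CA and from 0.14 to -0.09 in Gls2_CA, and most falls are far larger than that shift. Leaving out 1 animal at a time gave 10 to 13 members that rose and 28 to 31 that fell in Cyp1a2_CA, 12 to 14 and 23 to 26 in Gls2_CA, and 0 to 0 between the tumour groups. Without the Ttn-high libraries 12 rose and 28 fell in Cyp1a2_CA, and 14 and 26 in Gls2_CA. Of the genes selected for naming that had a fitted value, 69 of 87 and 61 of 85 kept their side of the threshold under every alternative. For Cyp1a2_CA against WT, limma-voom with the animal as a random effect could not be fitted. WT libraries were shallower than tumour libraries; thinning tumour counts to WT depth left 10 members that rose and 28 that fell in Cyp1a2_CA, of 50 tested.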
